A study of Mus musculus with 8 samples.

Results

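The response of adipocytes lacking YAP and TAZ to a high-fat diet was read from RNA-seq of isolated epididymal white adipocytes. In Ad-Yap/Taz-KO mice, 2 libraries taken after 4 weeks on HFD were compared with 2 libraries from normal chow (NC, also called standard diet). Genes averaging at least 5 normalized counts across the 8 libraries of the series entered the test, which were 18800 of the 30387 listed. Ad-Yap/Taz-KO mice carry floxed alleles of Yap and Taz together with a Cre transgene driven by the adiponectin promoter, so both genes are deleted in adipocytes and the deletion is constitutive. It is present on both diets and does not differ between the groups compared. The other 4 libraries came from wild-type (WT) littermates, 2 on each diet, and served to estimate the spread and to set the response beside that of WT. Feeding began at an age of 5 weeks per the series text, whereas the study's methods give a later start, and only males were used per the study's methods.

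YAP and TAZ are transcriptional coactivators that are held in check by the Hippo kinases and act on DNA mainly through TEAD factors. White adipocytes store triglyceride, release fatty acids and secrete adipokines such as adiponectin, leptin and adipsin. On a high-fat diet the epididymal depot enlarges, its extracellular matrix is remodelled and macrophages gather around its adipocytes.

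Both targeted genes were below every WT library in all 4 libraries, Wwtr1 by more than Yap1. Wwtr1, which encodes TAZ, had 2441 and 1957 normalized counts on NC and 2060 and 2707 on HFD in Ad-Yap/Taz-KO adipocytes, against 4743 to 7121 in WT. Yap1 had 1669 and 1699 on NC and 1549 and 2068 on HFD, against 2333 to 2776 in WT. Neither was called between the diets (log2 fold change 0.11 and 0.09, limma adjusted p = 0.81 and 0.84). The 4 Ad-Yap/Taz-KO libraries held 15.5 to 18.7 M reads on genes. Libraries of a group lay further apart in Ad-Yap/Taz-KO mice (median absolute log2 difference 0.298 on NC and 0.294 on HFD) than in WT mice (0.207 on NC and 0.151 on HFD). The pair of WT HFD libraries was the closest of the 4 pairs, and because all 8 libraries share 1 estimate of the spread, that pair sets much of the precision of the results. Its difference was beyond counting noise in 38.9% of genes (5% would be by noise alone), so the libraries differed by more than sampling noise, but that was the lowest share of the 4 pairs (45.6% to 57.1% in the others). Whether the pair came from separate mice was not tested, and for this reason the calls are also given with the pair averaged to 1 sample.

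HFD changed 202 of the 18800 genes in Ad-Yap/Taz-KO adipocytes (1.07% of the genes tested), 72 of which were higher (0.383%) and 130 lower (0.691%). A gene was called when the Benjamini-Hochberg adjusted p of limma was at most 0.05 and the absolute log2 fold change at least 0.59. The genes that rose included matrix and matrix-remodelling genes (Mmp2, Thbs2, Mgp, Lox, Col1a1), macrophage genes (Adgre1, Cd72, Ctsk) and Pdk4, the kinase that inhibits pyruvate dehydrogenase. The genes that fell included secreted proteins (Cfd, C6, C4b, Hp, Clu), enzymes of branched-chain amino acid breakdown (Ivd, Dbt, Acadsb, Aldh6a1) and the cytochrome P450 Cyp2f2. How many genes passed depended on the libraries and on the settings. Averaging the WT HFD pair to 1 sample left 28 of the 202 genes (0.149%), 8 higher and 20 lower, leaving both libraries out left 26 (0.138%), and the 4 Ad-Yap/Taz-KO libraries fitted alone gave 0 calls with 2059 genes at an unadjusted p under 0.05, against 2905 in the fit of all 8. A gene described below is among the 28 only where this is stated. Of the 64 called genes that the naming rule picked, 10 were called with every single library left out in turn (Cfd, Cyp2f2, C6, Prodh, Pdk4, Clu, Thbs2, Phkg1, Clec2d and Chrdl1), and leaving out the second Ad-Yap/Taz-KO NC library cost the most calls, with 11 left. Over all genes the number called was 14 without that library, 961 without the first Ad-Yap/Taz-KO NC library, 739 without the first and 50 without the second Ad-Yap/Taz-KO HFD library. It was 82 and 83 without a WT NC library, 3 with no filter on low counts and 1 without a variance trend. All 202 had both HFD libraries on one side of both NC libraries, as had 42% of the genes tested (22.7% higher and 19.3% lower).

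**Figure D1:**
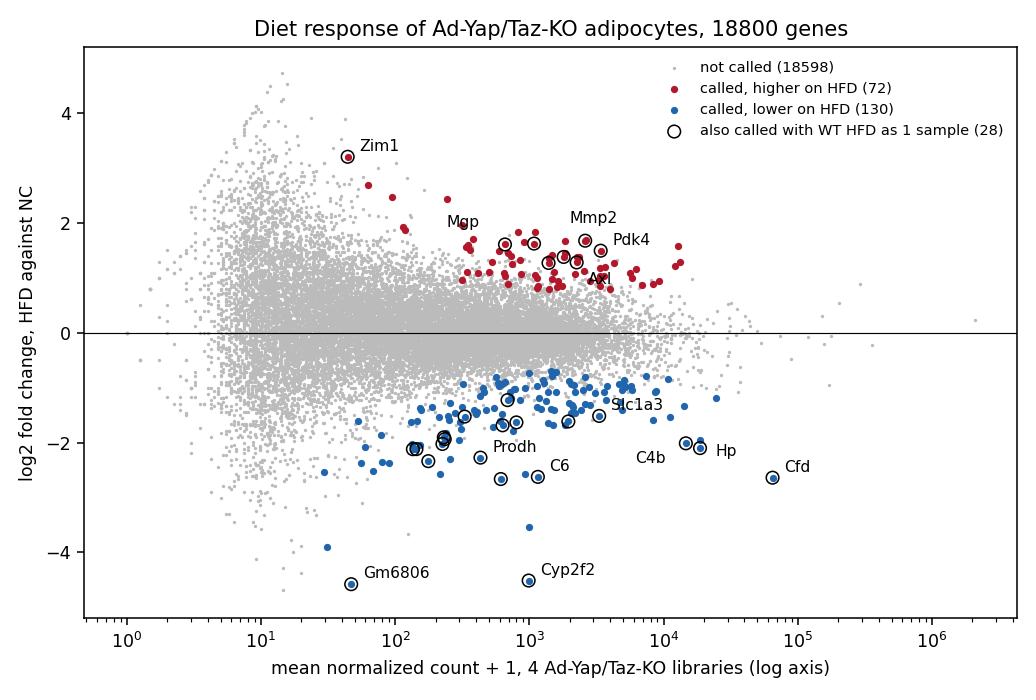
Mean normalized count of the 4 Ad-Yap/Taz-KO libraries (log axis) against the log2 fold change of HFD over NC for the 18800 genes tested. Red and blue points are the 72 higher and 130 lower genes that were called, and rings mark the 28 that were also called with the WT HFD libraries counted as 1 sample, with Cyp2f2 and Cfd far below 0 at high counts.

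Some genes of the extracellular matrix rose. Of 28 matrix genes in a list covering collagens, glycoproteins and their processing enzymes, 10 were called higher (0.383% of all genes tested were) and 0 lower, with a median log2 fold change of 0.592 against 0.034 over all genes tested. Mmp2 (chromosome 8, 92827291 to 92853420, GRCm38), a gelatinase that cleaves denatured collagen and basement membrane, had 1557 and 969 normalized counts on NC and 3659 and 4228 on HFD. Both HFD libraries were far above both NC libraries (log2 fold change 1.68, standard error 0.22, adjusted p = 0.0059). Thbs2, a matricellular glycoprotein that restrains angiogenesis, had 484 and 568 on NC and 1871 and 1403 on HFD (log2 fold change 1.63, standard error 0.19, adjusted p = 0.0029). Lox, the copper enzyme that cross-links collagen and elastin, had 906 and 719 on NC and 1749 and 2178 on HFD (1.27, standard error 0.17, adjusted p = 0.0068). Mgp, a vitamin K-dependent inhibitor of calcification, had 377 and 273 on NC and 866 and 1111 on HFD (1.61, standard error 0.21, adjusted p = 0.0068). These 4 genes, Mgp from outside the list, were all among the 28, with groups that did not overlap. The list did not move as a whole, since 10 of its genes had a log2 fold change below 0 and 7 had both HFD libraries below both NC libraries (16 above), against 19.3% and 22.7% of all genes tested. It summed to 273414 and 223771 normalized counts on NC and to 276262 and 274053 on HFD.

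The type I collagen genes rose from levels that differed between the NC libraries. Col1a1 had 9007 and 4408 normalized counts on NC and 19039 and 18472 on HFD (log2 fold change 1.57, adjusted p = 0.016), and Col1a2 had 10501 and 5363 on NC and 17328 and 19354 on HFD (1.29, adjusted p = 0.027). They encode the chains of type I collagen, and the first NC library held far more of each than the second. The membrane-bound protease Mmp14, which activates Mmp2, had 1476 and 628 on NC and 2587 and 2687 on HFD (1.45, adjusted p = 0.040). Aebp1, a collagen-binding secreted protein, had 1377 and 1138 on NC and 4204 and 3887 on HFD (1.69, adjusted p = 0.015). The type VI collagen genes Col6a1 (0.94) and Col6a5 (1.23), the small proteoglycan Bgn (0.85), the cartilage matrix protein Cilp (1.96), the integrin-related Itgbl1 (2.48) and the carboxypeptidase-like Cpxm1 (1.07) also rose. None of these 10 genes passed once the WT HFD pair was averaged, where their adjusted p lay between 0.068 and 0.12.

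Markers of fibroblasts and their progenitors lay on the same side as the matrix genes, with 1 of them called (0.383% of all genes tested were called higher). Pdgfra, the receptor that marks adipocyte progenitors and fibroblasts, had 1544 and 1063 normalized counts on NC and 2789 and 3960 on HFD (log2 fold change 1.37, adjusted p = 0.016, and 0.068 once the WT HFD pair was averaged). It was the only called gene of 10 fibroblast and progenitor markers, all of which had a log2 fold change above 0 (median 0.887) and 7 of which had both HFD libraries above both NC libraries, as had 22.7% of all genes tested. Dcn, an interstitial proteoglycan on that list, had 7472 and 4894 on NC and 9717 and 13120 on HFD (0.90, adjusted p = 0.056). The list summed to 16444 and 11543 normalized counts on NC and to 22649 and 26366 on HFD. In bulk RNA, more cells of a type and more RNA per cell cannot be told apart, and the part of fibroblasts in the rise of the matrix genes was not tested.

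Some macrophage genes rose as well. Adgre1, which encodes the macrophage surface protein F4/80, had 1699 and 922 normalized counts on NC and 3314 and 3178 on HFD (log2 fold change 1.37, standard error 0.25, adjusted p = 0.027). It did not pass once the WT HFD pair was averaged (adjusted p = 0.082). Both WT groups held 73 to 152, so that every Ad-Yap/Taz-KO library was above every WT library. Of 18 macrophage markers, 15 had a log2 fold change above 0 (median 0.772) and 13 had HFD libraries above both NC libraries (22.7% of all genes tested had), but Adgre1 was the only one called, where 0.383% of all genes were called higher. Cd68, a lysosomal glycoprotein of macrophages, had 1928 and 1425 on NC and 3183 and 3020 on HFD (0.90, adjusted p = 0.082), and Csf1r, the receptor for macrophage colony-stimulating factor, had 2869 and 1541 on NC and 3461 and 3441 on HFD (0.71, adjusted p = 0.16). Lyz2, the lysozyme of myeloid cells, had 14639 and 7251 on NC and 10872 and 9376 on HFD, with groups that overlapped (-0.03, adjusted p = 0.97). The markers summed to 34919 and 19963 on NC and to 39393 and 36894 on HFD, against 3021 to 6687 in WT.

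Among 17 genes of the lipid-associated macrophages that surround dying adipocytes, Cd72 and Ctsk were called (0.383% of all genes tested were called higher). Of the 17, 14 had a log2 fold change above 0 and 3 below, with a median of 0.639. Both HFD libraries lay above both NC libraries in 10 and below in 1 (22.7% and 19.3% of all genes tested). Cd72, an inhibitory lectin receptor of B cells and macrophages, had 74 and 72 normalized counts on NC and 497 and 324 on HFD (log2 fold change 2.44, adjusted p = 0.035), and 41.6% of its exonic bases are overlapped by Tesk1 on the opposite strand. Ctsk, the collagen-degrading cathepsin K, had 1192 and 606 on NC and 3369 and 2191 on HFD (1.68, adjusted p = 0.018). Trem2, the lipid receptor that marks these cells, had 941 and 418 on NC and 1525 and 1034 on HFD, which was not called (1.00, adjusted p = 0.24). The cytokine Il1b had 691 and 326 on NC and 1951 and 1469 on HFD (1.83, adjusted p = 0.031), and the chemokine Ccl4 had 492 and 320 on NC and 1024 and 1067 on HFD (1.40, adjusted p = 0.037). They were the called genes among 22 listed chemokines and cytokines (0.383% of all genes tested were called higher). The median of the 22 was 0.438 against 0.034 over all genes tested, with 16 above 0 and 6 below. Outside the list the chemokine Cxcl9, chosen after its values were seen, fell from 1681 and 2805 to 921 and 725 (-1.41, adjusted p = 0.019, and 0.079 once the WT HFD pair was averaged), and Cxcl11 and Il7 fell too. After averaging that pair the 4 rises did not pass either, with adjusted p of 0.079 for Cd72, 0.073 for Ctsk, 0.083 for Il1b and 0.10 for Ccl4.

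Axl and Oasl1 rose and were both among the 28. Axl, a receptor tyrosine kinase for the bridging protein Gas6 and one of 21 listed YAP/TAZ targets, had 1552 and 1095 normalized counts on NC and 3040 and 3310 on HFD (log2 fold change 1.28, standard error 0.20, adjusted p = 0.012). It was the one called target (0.383% of all genes tested were called higher), and the list did not move together. Of the 21, 13 had a log2 fold change above 0 and 8 below (median 0.25), 7 had both HFD libraries above both NC libraries and 2 below (22.7% and 19.3% of all genes tested), and the sum was 58448 and 75487 on NC and 53696 and 41698 on HFD. Cyr61, a classical target, had 2494 and 1657 on NC and 3057 and 3288 on HFD (0.64, adjusted p = 0.11), and Ctgf had 120 and 56 on NC and 98 and 185 on HFD, with groups that overlapped. Gm15270 overlaps 23.2% of the exonic bases of Ctgf on the opposite strand. Oasl1, an interferon-induced gene related to the oligoadenylate synthetases, had 1143 and 864 on NC and 2723 and 2467 on HFD (1.38, standard error 0.20, adjusted p = 0.0093). On a list of 16 other interferon-induced genes, none was called higher and Gbp2, an interferon-gamma-induced GTPase, fell from 6848 and 8838 to 4166 and 3420 (-1.04, adjusted p = 0.016, and 0.077 once the WT HFD pair was averaged). Ifih1, an interferon-induced RNA sensor outside the list and chosen after its values were seen, rose from 3207 and 2605 to 4863 and 5178 (0.80, adjusted p = 0.043, and 0.12 so averaged). Chosen in the same way, Ifi27l2a fell from 18623 and 14366 to 7701 and 4121 (-1.54, adjusted p = 0.012, and 0.066 so averaged). Gbp5 fell from 2498 and 3439 to 1415 and 1378 (-1.07, adjusted p = 0.041, and 0.12 so averaged).

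Pdk4 gave the most precise rise. It encodes the kinase that shuts pyruvate dehydrogenase when fatty acids are the fuel (chromosome 6, 5483351 to 5496309), and it had 1694 and 1856 normalized counts on NC and 5406 and 4630 on HFD, 2.83 times as many on average (log2 fold change 1.5, standard error 0.15, adjusted p = 0.00086). Plin2, a lipid droplet coat protein, had 6348 and 5401 on NC and 12004 and 9817 on HFD (0.89, standard error 0.16, adjusted p = 0.025). Dbp, an output transcription factor of the circadian clock, had 152 and 183 on NC and 589 and 413 on HFD (1.56, standard error 0.23, adjusted p = 0.011), and was the one called gene among 17 of the clock (0.383% of all genes tested were called higher). Pdk4 remained called with the WT HFD pair as 1 sample (adjusted p = 0.013), while Plin2 (0.11) and Dbp (0.051) did not.

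The largest fold among the rises belonged to Zim1, an imprinted zinc-finger gene on a list of 8 genes tied to fat expansion. It had 11 and 5 normalized counts on NC and 65 and 92 on HFD (log2 fold change 3.21, standard error 0.49, adjusted p = 0.012), and it was among the 28. With so few counts on NC the fitted value moved with the constant added before taking logs, from 2.44 to 3.36 over the alternatives. The WT libraries held 64 and 79 on NC and 108 and 170 on HFD, so on NC Zim1 was below WT and on HFD it reached 65 and 92 against 108 and 170. Lep, which encodes leptin and is on the same list, had 6932 and 10784 on NC and 7257 and 1545 on HFD, with groups that overlapped (-1.37, adjusted p = 0.22). Among the called rises not described above, the largest were those of the paternally expressed Rtl1 (1.92), the calcium release channel Ryr2 (2.69), the activin antagonist Fst (1.70), the adhesion molecule Cadm1 (1.83) and the GTPase-activating protein Arhgap22 (1.86), and none of the 5 was among the 28. Gm15512 overlaps 36.9% of the exonic bases of Arhgap22 on the opposite strand.

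The strongest call of all was a fall. Cfd, which encodes adipsin, the complement factor D that adipocytes secrete in bulk (chromosome 10, 79890853 to 79892656), had 105691 and 117774 normalized counts on NC and 19352 and 16577 on HFD. NC held 6.22 times as many on average (log2 fold change -2.64, standard error 0.20, adjusted p = 0.00014). On NC its level was that of WT, which had 112117 and 115512, and on HFD it was below the 44882 and 44048 of WT. The fall was called under 11 of 13 alternatives and with each of the 8 libraries left out in turn, and it missed the limit in the Ad-Yap/Taz-KO libraries alone (adjusted p = 0.091) and without a variance trend (0.061).

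C6, C4b, Hp and Clu, which encode secreted proteins, fell too, while the secreted Mgp and, chosen after their values were seen, Serpinf1, Igfbp5 and C1ra were called higher. C6, a component of the membrane attack complex, had 1447 and 2542 normalized counts on NC and 376 and 256 on HFD (log2 fold change -2.62, standard error 0.25, adjusted p = 0.0008). C4b, a complement factor whose reads can be shared with a near-identical copy, had 19277 and 27354 on NC and 7820 and 4138 on HFD (-2.01, standard error 0.27, adjusted p = 0.0068). Hp, which encodes the haemoglobin-binding haptoglobin, had 24635 and 35865 on NC and 8697 and 5527 on HFD (-2.10, standard error 0.29, adjusted p = 0.0068). Clu, the extracellular chaperone clusterin, had 972 and 952 on NC and 300 and 297 on HFD (-1.68, standard error 0.18, adjusted p = 0.0011), and of these genes its libraries were the most alike within each diet. Cfd and these 4 falls were among the 28.

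Il7, Chrdl1 and Prlr fell. Il7, a growth factor for lymphocytes, had 226 and 210 normalized counts on NC and 64 and 38 on HFD (log2 fold change -2.12, adjusted p = 0.0068). Chrdl1, a secreted BMP antagonist, had 1127 and 1289 on NC and 348 and 433 on HFD (-1.63, adjusted p = 0.0031). Prlr, the prolactin receptor, had 869 and 1056 on NC and 389 and 430 on HFD (-1.23, adjusted p = 0.0073). Each of these genes was among the 28, as were Clec2d, a lectin-like ligand of natural killer receptors (2578 and 3309 on NC, 1032 and 880 on HFD), the kinase gene Pak3 (-2.12) and Fam150b, which encodes a ligand of the receptor ALK (-2.02) and has 35.1% of its exonic bases overlapped by Acp1 on the opposite strand. Il13ra2, the decoy receptor for interleukin 13, had 69 and 44 on NC and only 6 and 1 on HFD, a fall that was called (adjusted p = 0.025) but not among the 28. Trhde, an ectoenzyme that degrades thyrotropin-releasing hormone (-2.58), the chemokine gene Cxcl11 (-2.37) and Rprml (-2.36) fell as well, with adjusted p of 0.073, 0.073 and 0.063 once the WT HFD pair was averaged. Cxcl11 is annotated as a polymorphic pseudogene. Of the exonic bases of Cxcl11, 41.7% are overlapped by Gm2673 on the opposite strand.

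Of 18 listed enzymes of branched-chain amino acid breakdown, 4 fell. All 18 had a log2 fold change below 0, from -1.30 to -0.40 with a median of -0.763, and in 15 both HFD libraries were below both NC libraries, as in 19.3% of all genes tested. Of all genes 0.691% were called lower, and 0 of the 18 were called higher. Ivd, the dehydrogenase of isovaleryl-CoA in leucine breakdown, had 3038 and 4255 normalized counts on NC and 1828 and 1174 on HFD (-1.29, adjusted p = 0.015). Dbt, the core subunit of the branched-chain ketoacid dehydrogenase, had 1373 and 1666 on NC and 816 and 726 on HFD (-0.97, adjusted p = 0.016). Acadsb, which acts in isoleucine breakdown, fell by 1.09 on the log2 scale (adjusted p = 0.019) and Aldh6a1, which acts in valine breakdown, by 0.98 (adjusted p = 0.0497). None of the 4 passed with the WT HFD libraries as 1 sample, with adjusted p from 0.072 to 0.14. The list summed to 34826 and 45305 on NC and to 27374 and 17423 on HFD. Prodh, the first enzyme of proline breakdown and no member of that list, had 452 and 996 on NC and 140 and 136 on HFD (-2.27, adjusted p = 0.0055) and was among the 28.

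Cyp2f2, Mogat1 and Pnpla3 were the called falls on the lists of detoxification, triglyceride synthesis and lipogenic genes. Of all genes tested, 0.691% were called lower. Cyp2f2, a cytochrome P450 monooxygenase best known from the lung (chromosome 7, 27119909 to 27133660), had 1510 and 2252 normalized counts on NC and 138 and 46 on HFD. NC held 20.4 times as many on average (log2 fold change -4.51, standard error 0.43, adjusted p = 0.0008), and WT held 338 to 597 on NC and 95 and 121 on HFD. Cyp2f2 was among the 28 and was the one called gene among 14 of that class, whose median was -0.582, while Cyp2e1 had 24374 and 41614 on NC and 17112 and 14383 on HFD (-1.02, adjusted p = 0.073) and Aox1 4776 and 8361 on NC and 3325 and 1782 on HFD (-1.38, adjusted p = 0.0502). Mogat1, which makes diacylglycerol from monoacylglycerol, had 347 and 393 on NC and 103 and 89 on HFD (-1.94, standard error 0.24, adjusted p = 0.0040). It was among the 28 and was the one called gene of 12 in triglyceride synthesis. Pnpla3, a lipogenic lipid droplet protein, had 2199 and 3724 on NC and 1560 and 684 on HFD (-1.47, adjusted p = 0.049, and 0.13 once the WT HFD pair was averaged).

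The lipogenic enzymes themselves did not pass. Scd1, the stearoyl-CoA desaturase and the most abundant of them, had 163234 and 233338 normalized counts on NC and 501294 and 258238 on HFD (log2 fold change 0.88, adjusted p = 0.33). Fasn, the fatty acid synthase, had 18280 and 27415 on NC and 20503 and 9040 on HFD (-0.72, adjusted p = 0.30), with groups that overlapped. In both genes the second HFD library held far less than the first. Of 17 lipogenic genes 1 was called, Pnpla3. No gene was called among 23 of cholesterol synthesis and uptake, 16 of fatty acid oxidation, 20 of the citrate cycle and pyruvate entry, 10 of fatty acid uptake or 12 of insulin signalling, and their medians were -0.021, 0.042, -0.261, -0.12 and -0.52. In the citrate cycle list 19 of 20 genes were below 0, and in insulin signalling 11 of 12. Both HFD libraries were below both NC libraries in 3 and 6 of them (19.3% of all genes tested), and above in 0 and 1 (22.7%). The other lists lay on both sides of 0.

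Acta1, Phkg1 and Slc1a3 stood apart from these groups. Acta1, the skeletal muscle actin, had 1359 and 2207 normalized counts on NC and 334 and 66 on HFD (log2 fold change -3.53, standard error 0.52, adjusted p = 0.011). It missed the limit once the WT HFD pair was averaged (adjusted p = 0.051). Of 9 skeletal muscle markers it was the one called (0.691% of all genes tested were called lower). Myl1 had 310 and 447 on NC and 307 and 111 on HFD, Ttn had 394 and 379 on NC and 266 and 469 on HFD, and Ckm, Myh1 and Mylpf averaged 17.9, 7.75 and 7.62 over the 8 libraries. Phkg1, the catalytic subunit of the muscle phosphorylase kinase, had 285 and 302 on NC and 63 and 52 on HFD (-2.34, standard error 0.24, adjusted p = 0.0011), and Slc1a3, a glutamate transporter, had 3879 and 5977 on NC and 1849 and 1536 on HFD (-1.51, adjusted p = 0.0068). Both were among the 28, with the polyamine regulator Azin2 (-1.90) and the mitochondrial hydrolase Hint2 (-1.53). The pseudogenes Gm6806 (53 and 126 on NC, 3 and 2 on HFD) and Hspd1-ps4 (789 and 1312 on NC, 236 and 108 on HFD) were called, also among the 28, and are uncertain, because their reads can belong to the genes they derive from. The short noncoding Gm22513 had 1920 and 1226 on NC and 161 and 411 on HFD, and it was not among the 28.

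**Figure D2:**
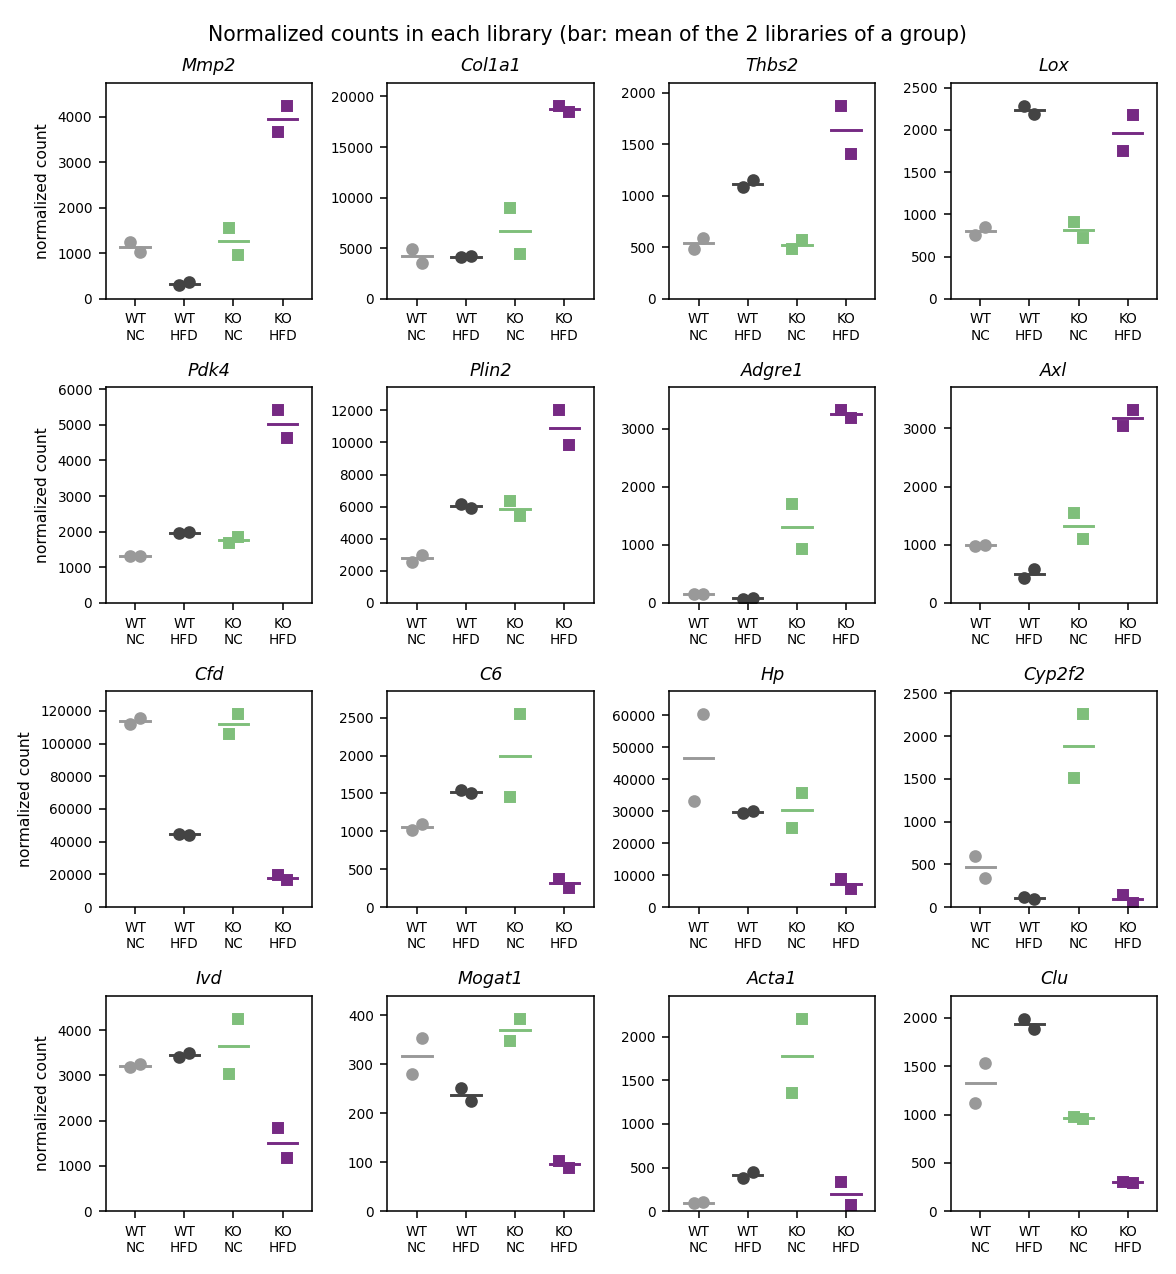
Normalized counts (linear axis from 0) of 16 genes in each of the 8 libraries, with circles for WT, squares for Ad-Yap/Taz-KO (KO) and a bar at the mean of the 2 libraries of a group. In the Ad-Yap/Taz-KO groups the first 8 genes had both HFD libraries above both NC libraries and the last 8 had both below, whereas WT moved the other way in genes such as Mmp2, Axl and Acta1.

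Cfd set much of the difference in the summed adipocyte markers. The 14 adipocyte markers summed to 293051 and 383423 normalized counts on NC and to 235455 and 125854 on HFD, and 12 of them had a log2 fold change below 0 (median -0.693), although Cfd was the only one called. Without Cfd the sum was 187360 and 265649 on NC and 216103 and 109277 on HFD, with groups that overlapped. Adipoq, which encodes adiponectin, had 26648 and 39149 on NC and 27322 and 13284 on HFD, with groups that overlapped (-0.76, adjusted p = 0.23). Plin1, the coat protein of the adipocyte lipid droplet, had 29832 and 37876 on NC and 23643 and 12435 on HFD (-0.97, adjusted p = 0.097), and Pparg, the master transcription factor of adipocytes, had 2149 and 2899 on NC and 1819 and 1523 on HFD (-0.58, adjusted p = 0.12). Fabp4, the fatty acid-binding protein, had 43494 and 70216 on NC and 64080 and 36542 on HFD (-0.19, adjusted p = 0.80). The second HFD library was the lowest in the marker sum and the second NC library the highest. Of the 130 called falls, 104 were lower in the second than in the first HFD library (80%) and 109 higher in the second NC library (83.8%), against 50.1% and 47.7% of all genes tested. Of the 72 rises, 33 were lower in the second HFD library (45.8%) and only 9 higher in the second NC library (12.5%).

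The falls were also expressed per adipocyte marker. Divided by the summed adipocyte markers without Cfd, which were 0.718 times as high on HFD as on NC, 99 of the 130 called genes still had both HFD libraries below both NC libraries, with a median log2 ratio of -0.84, and 31 overlapped. So divided, 3.61% of all genes tested had both HFD libraries below both NC libraries. The ratio was -2.06 for Cfd, -3.96 for Cyp2f2, -2.08 for C6, -1.55 for Hp and -1.37 for Mogat1, with groups apart in each. Among the branched-chain enzymes it was -0.75 for Ivd, -0.54 for Acadsb, -0.43 for Aldh6a1 and -0.38 for Dbt, and Dbt overlapped. Of the 72 rises, 66 stayed above NC in both HFD libraries when divided by the macrophage markers without Adgre1 and 57 when divided by the fibroblast markers without Pdgfra, against 8.45% and 4.89% of all genes tested. The called genes had been chosen as apart in the same libraries, so nothing is read from these counts against the background. These ratios describe the libraries, and the part of the cell makeup in the falls and rises was not tested further.

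**Figure D3:**
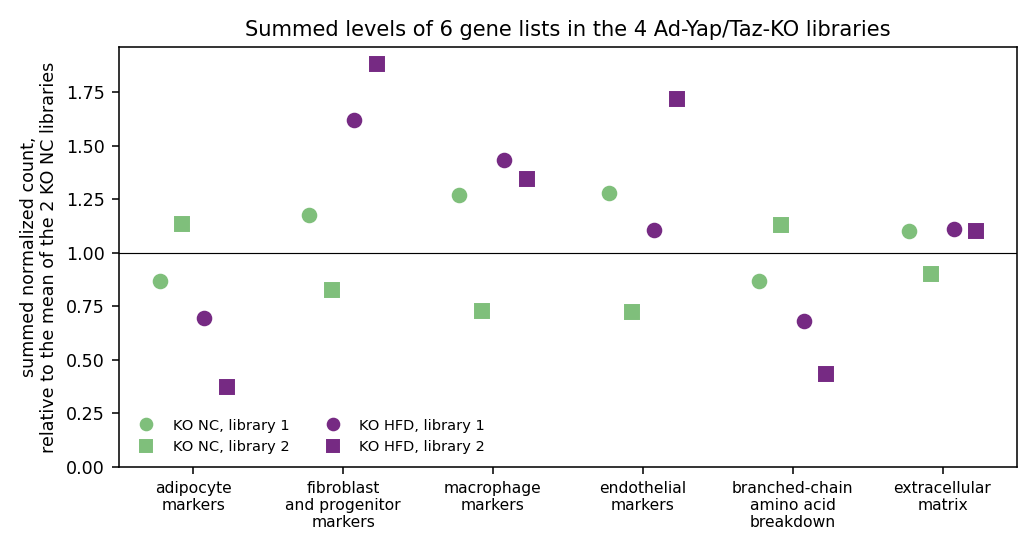
Summed normalized counts of 6 gene lists in the 4 Ad-Yap/Taz-KO libraries, relative to the mean of the 2 NC libraries (axis from 0). Adipocyte markers and branched-chain amino acid enzymes were lowest in the second HFD library, fibroblast markers were above both NC libraries in both HFD libraries, and the endothelial and matrix sums overlapped or nearly met between the diets.

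The lists of endothelial and cell cycle genes held no called gene. Of 12 endothelial markers 0 were called, although all had a log2 fold change above 0 (median 0.49). Pecam1, an endothelial adhesion molecule, had 6285 and 3595 normalized counts on NC and 5640 and 8935 on HFD, and Cdh5, the endothelial cadherin, 7652 and 4122 on NC and 6544 and 9819 on HFD, with groups that overlapped. Cell cycle genes had the second highest median of the lists shown (0.879 over 22 genes), and 17 had both HFD libraries above both NC libraries (22.7% of all genes tested had), but none was called. Mki67, the proliferation marker, had 2732 and 1739 on NC and 3796 and 4226 on HFD (log2 fold change 0.88, adjusted p = 0.066), and Top2a, the DNA topoisomerase of dividing cells, had 564 and 308 on NC and 652 and 752 on HFD (0.75, adjusted p = 0.24). Lymphocyte markers summed to 306 and 234 on NC and to 191 and 335 on HFD.

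**Figure D4:**
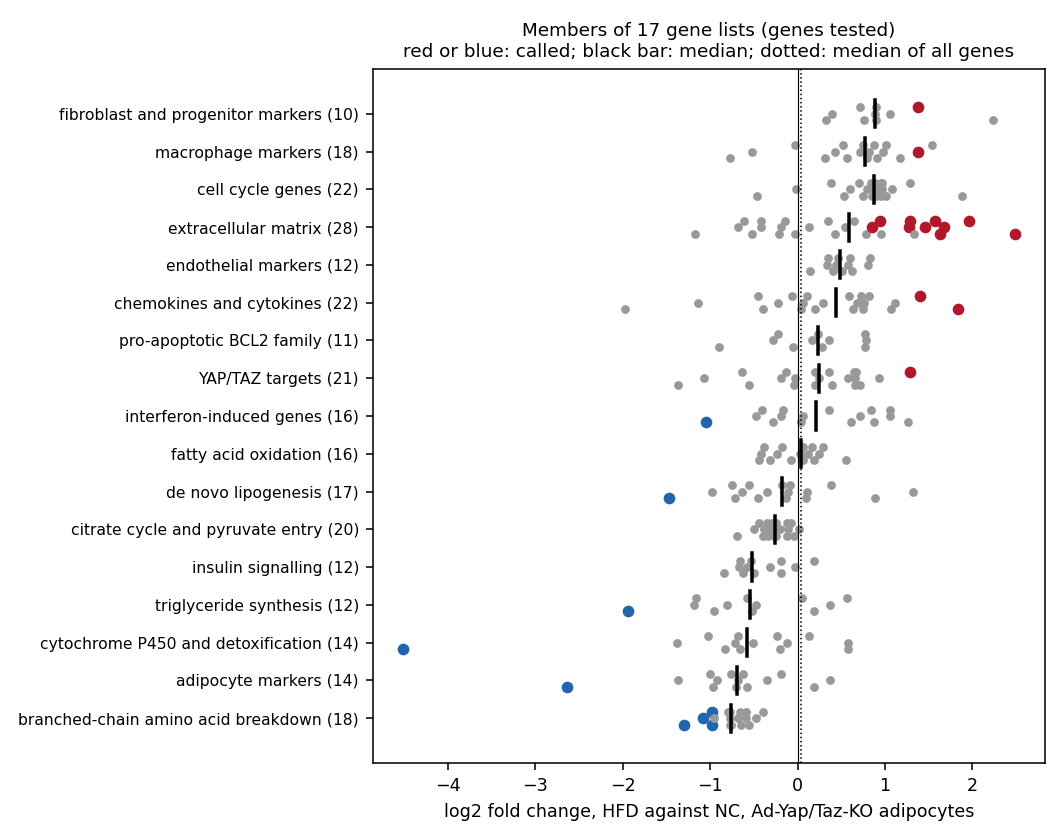
Log2 fold change of HFD against NC in Ad-Yap/Taz-KO adipocytes for the members of 17 gene lists, with the number of genes tested in brackets, called genes in red or blue, and a black bar at each list's median. The fibroblast, macrophage, cell cycle and matrix medians lay right of the dotted median of all genes (0.034) and those of adipocyte markers and branched-chain amino acid breakdown were the furthest left.

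No gene on the lists of the BCL2 family, which governs mitochondrial cell death, passed the test. Bcl2l11, which encodes the pro-apoptotic Bim, had 1330 and 990 normalized counts on NC and 1886 and 2031 on HFD (log2 fold change 0.77, adjusted p = 0.068). Both its HFD libraries were above both NC libraries, as in 22.7% of all genes tested. Of 11 pro-apoptotic and 6 anti-apoptotic members of the BCL2 family 0 were called, with medians of 0.235 and 0.23. Mcl1, the most abundant anti-apoptotic member, had 13849 and 11001 on NC and 12371 and 13917 on HFD, and Bcl2l1 had 553 and 508 on NC and 688 and 684 on HFD (log2 fold change 0.37, adjusted p = 0.33). Bnip3, a BH3-only relative outside the lists and chosen after its values were seen, fell from 2127 and 3020 to 1517 and 1242 (-0.88, adjusted p = 0.041, and 0.12 once the WT HFD pair was averaged).

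The response was then set beside that of WT adipocytes, in which 3377 genes were called (18%). Of the 72 rises in Ad-Yap/Taz-KO adipocytes, 15 were also called higher in WT (as were 8.74% of all genes) and 25 were called lower there (9.22% of all genes), and of the 130 falls 25 were also called lower and 5 higher. The difference of the responses itself, tested as the interaction, was called for 3274 genes (17.4% of the genes tested, 8.69% positive and 8.73% negative), among them 50 of the 72 rises with a more positive response in Ad-Yap/Taz-KO adipocytes (a less positive one in 2) and 83 of the 130 falls with a more negative response (a less negative one in 1). The interaction contains the contrast by which these genes were chosen, so their counts are a description and are not read against the background. Averaging the WT HFD pair gave 641 genes for WT (3.41%) and 680 for the interaction (3.62%), and without the first WT NC library they were 628 and 530. Scaling all libraries to the same total moved the median of the interaction from 0.098 to 0.515 and its split from 1633 positive and 1641 negative to 2610 and 619. It also turned the split in WT from 1643 higher and 1734 lower to 470 and 3567, so the counts by direction in WT hold for the scaling used here.

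Matrix genes fell on both sides of this comparison. Lox rose in both genotypes, by 1.27 in Ad-Yap/Taz-KO and 1.48 in WT (interaction -0.20, adjusted p = 0.60), and so did Thbs2 (1.63 and 1.06), Plin2 (0.89 and 1.13), Dbp (1.56 and 1.61) and Col6a1 (0.94 and 1.21). Mmp2 went from 1240 and 1034 normalized counts to 294 and 365 in WT while it rose in Ad-Yap/Taz-KO adipocytes (interaction 3.46, adjusted p = 0.00044), and Col6a5 from 4107 and 4446 to 784 and 882 (interaction 3.59, adjusted p = 0.00034). Oasl1 also fell in WT, from 364 and 427 to 141 and 116 (interaction 3.0, adjusted p = 0.00044). Cfd and Cyp2f2 fell in both genotypes, by 2.64 and 4.51 in Ad-Yap/Taz-KO and by 1.36 and 2.06 in WT on the log2 scale, with interactions of -1.28 (adjusted p = 0.011) and -2.46 (adjusted p = 0.018). Clec2d and Fam150b fell to a like extent in both, with interactions of 0.41 and -0.08 that were not called. Across all 18800 genes the log2 fold changes of the 2 genotypes, which share no library, had a Pearson correlation of -0.179 and a Spearman correlation of -0.252, a description over genes that are not independent.

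**Figure D5:**
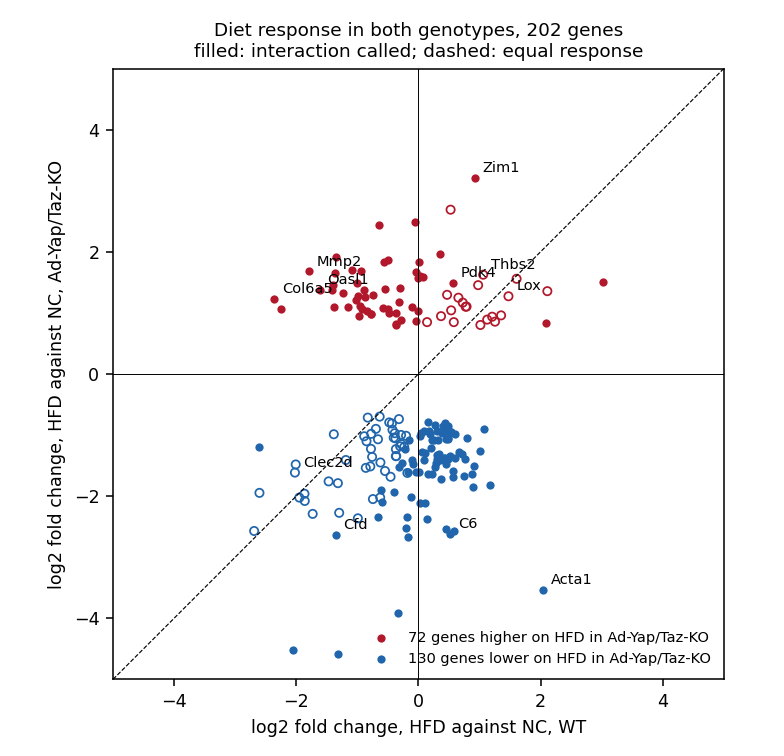
Log2 fold change of HFD against NC in WT (horizontal) and in Ad-Yap/Taz-KO adipocytes (vertical) for the 202 called genes, filled where the interaction was called. Most rises lie left of the dashed line of equal response and most falls right of or below it, with Lox and Thbs2 near the line and Mmp2, Col6a5 and Acta1 on opposite sides of 0 in the 2 genotypes.

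The sequence upstream of the start was read for 2 rises and 2 falls. Shown are 250 bases before the RefSeq start of Pdk4 (chr6:5496279-5496528, minus strand), Axl (chr7:25788734-25788983, minus strand), Cfd (chr10:79890603-79890852, plus strand) and Slc1a3 (chr15:8710808-8711057, minus strand) on GRCm38, the rises and falls of highest mean level among the 28 that had an entry.
Pdk4: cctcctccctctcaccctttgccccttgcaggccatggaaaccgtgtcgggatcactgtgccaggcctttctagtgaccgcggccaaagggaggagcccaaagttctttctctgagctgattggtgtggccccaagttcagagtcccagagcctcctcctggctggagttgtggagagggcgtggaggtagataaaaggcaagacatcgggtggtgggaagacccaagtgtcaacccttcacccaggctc
Axl: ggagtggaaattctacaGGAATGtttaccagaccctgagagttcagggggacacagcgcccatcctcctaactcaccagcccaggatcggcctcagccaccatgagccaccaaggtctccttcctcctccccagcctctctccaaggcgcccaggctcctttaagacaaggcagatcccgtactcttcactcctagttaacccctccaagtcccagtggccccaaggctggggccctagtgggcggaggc
Cfd: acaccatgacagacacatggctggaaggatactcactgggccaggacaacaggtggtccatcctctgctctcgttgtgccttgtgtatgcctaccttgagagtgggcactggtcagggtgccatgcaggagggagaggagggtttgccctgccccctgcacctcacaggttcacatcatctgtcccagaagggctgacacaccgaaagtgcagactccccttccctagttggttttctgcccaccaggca
Slc1a3: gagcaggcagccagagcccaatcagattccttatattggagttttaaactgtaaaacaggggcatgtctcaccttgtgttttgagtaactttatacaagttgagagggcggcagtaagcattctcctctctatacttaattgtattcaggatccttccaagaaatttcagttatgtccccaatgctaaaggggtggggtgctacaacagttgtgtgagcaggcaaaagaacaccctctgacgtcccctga
Capitals mark any match, on either strand, to the TEAD core GGAATG, the AP-1 motif TGANTCA, the C/EBP motif TTGCNNAA or the E-box CACGTG, and Axl held 1, a TEAD core. Over the same window, the TEAD core was found in 5 of the 48 rises with an entry (10.4%), in 16 of 89 falls (18%) and in 10.9% of the 11886 genes tested that had one. The AP-1 motif was found in 2.08%, 7.87% and 4.63%, the C/EBP motif in 10.4%, 12.4% and 7.56%, and the E-box in 2.08%, 11.2% and 8%. These matches describe letters in a window and not sites bound in these cells.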

How the data were processed

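RNA from isolated epididymal white adipocytes was sequenced in 8 libraries (2 for each genotype and diet). Per the study's methods and the submitters' processing notes, reads were aligned to GRCm38 with STAR 2.5.2b, counted per gene with featureCounts 1.5.1 without reads matching several genes or places, and normalized with DESeq2 1.14.1. The deposited table holds the authors' normalized counts rounded to whole numbers, a score rather than raw counts, so no count model was run. The setting for strand is not given in the sources used here. From it, log2(value + 1) was fitted with limma 3.58.1 in R 4.3.3 (4 group means, trended variance, 4 residual degrees of freedom), with two-sided p-values adjusted over all genes tested (those averaging 5 or more). Fold changes of low genes are understated on this scale. The study gives 2 mice per group, so p-values rest on few samples. The WT HFD libraries were closer than the other pairs, and the fit was repeated with them as 1 sample in case they are not separate mice. The procedure was tested on simulated data.

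The members and the gene lists were chosen with earlier results of these data known. Genes were named by rule: the 12 largest rises and falls among called genes with a mean of at least 50, those still called with the WT HFD pair averaged to 1 sample, called list members or the most abundant members of lists without calls, genes the study names, and the 5 largest interactions of each sign. One gene that this rule picked is not reported here. Gene positions are the table's own. Of its gene IDs, 30259 were found in GENCODE vM21. Alternatives were other constants (0.1, 8), filters, scalings, sample sets, limits, variance models and leaving out each library. Replicate numbers were not treated as pairs.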

Additional observations from a re-analysis of the deposited data

Results flagged for a closer look

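The results below differed between the genotypes by the interaction of genotype and diet in limma, counted only where it was called with both WT HFD libraries averaged to 1 sample, which was so for 680 genes. Values are the log2 fold change of the diet in Ad-Yap/Taz-KO adipocytes minus that in WT, from all 8 libraries.

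Among matrix and mesenchymal genes the interaction was 3.46 for Mmp2, 2.85 for Mmp14, 2.04 for Col1a2, 3.59 for Col6a5, 3.31 for Cpxm1, 2.63 for Aebp1, 1.58 for Mgp, 2.79 for Pdgfra and 2.03 for Dcn. Mgp hardly moved in WT (0.03), and the others had a negative value there. Among macrophage and immune genes it was 2.26 for Adgre1, 2.14 for Cd68, 1.83 for Csf1r, 1.39 for Mrc1, the mannose receptor of resident macrophages, 2.95 for Trem2, 3.09 for Cd72, 1.94 for Ccl4, 2.26 for Axl and 3.0 for Oasl1. For Bcl2l11 it was 1.82 and for the proliferation marker Mki67 1.69. Further positive values were 3.27 for Rtl1, 2.40 for Cadm1 and 2.78 for Fst.

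Negative interactions were -5.57 for Acta1, which was higher on HFD in WT (97 and 101 normalized counts on NC, 376 and 445 on HFD), -3.73 for Lep, -2.36 for Fasn, -3.14 for C6, -2.25 for Clu, -1.86 for Chrdl1, -2.22 for Pak3, -2.14 for Il7, -3.17 for Trhde and -2.50 for Hspd1-ps4. Lep rose in WT from 10493 and 19324 to 72885 and 73642.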

How the results depend on the processing

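The number of genes called in Ad-Yap/Taz-KO adipocytes (202) was 112 and 330 with constants of 0.1 and 8, 3 without a filter, 304 after quantile normalization, 28 with the WT HFD libraries as 1 sample, 26 without them, 0 from the Ad-Yap/Taz-KO libraries alone (2059 at an unadjusted p under 0.05), 1 without a variance trend, 25 at an adjusted p of at most 0.01 and 112 with a replicate block. Leaving out each library gave 14 to 961 genes: 961 and 14 without Ad-Yap/Taz-KO NC replicates 1 and 2, 739 and 50 without HFD replicates 1 and 2, 28 and 26 without WT HFD replicates 1 and 2, and 83 and 82 without WT NC replicates 1 and 2. With 1 library left, a group is assumed to vary like the others. For the interaction (3274) the count was 721 without a filter, 680 with the WT HFD pair as 1 sample, 9 without a trend, 732 at the stricter limit and 530 to 4249 with a library left out. For WT (3377) these were 1701, 641, 498, 1223 and 628 to 3866, and 2186 after quantile normalization. The cause was not tested. Same-numbered libraries did not deviate together (r from -0.30 to 0.11 over the 6 pairs of groups). No pairing by number was seen, but a low correlation cannot exclude a shared litter, day or batch, which was not tested. The block lowered the interaction to 2568 and WT to 2935. Because Ad-Yap/Taz-KO NC and HFD deviated in opposite ways, the numbers of its HFD libraries were also crossed, after seeing the data, which gave 700 genes in Ad-Yap/Taz-KO, 4191 for the interaction and 4012 for WT. None of the 64 called genes of the naming rule turned direction under the alternatives run or with a library left out. Each had both HFD libraries on one side of both NC libraries, so leaving out a library could not have turned it. Fabp4 (0.006) and Lyz2 (0.10), not called, turned under quantile normalization, and with a library left out the range spanned 0 for Fabp4 (-0.60 to 0.21), Lyz2 (-0.54 to 0.48), Ttn (-0.54 to 0.28), Mcl1 (-0.078 to 0.25), Yap1 (-0.12 to 0.30) and Wwtr1 (-0.085 to 0.31).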

Other observations

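Some called genes lay outside the lists and the naming rule and were chosen here after their values were seen. Ghr, the growth hormone receptor, had 16400 and 24347 normalized counts on NC and 10551 and 5946 on HFD in Ad-Yap/Taz-KO adipocytes (log2 fold change -1.33). Tshr, the thyrotropin receptor, had 2454 and 3367 on NC and 1709 and 782 on HFD (-1.31), and Acvr1c, the receptor ALK7 of the activin family, had 5882 and 8080 on NC and 3600 and 1881 on HFD (-1.41). Hsd11b1, which regenerates active glucocorticoid, had 777 and 1602 on NC and 303 and 343 on HFD (-1.79), and Fkbp5, a glucocorticoid-induced co-chaperone, had 1420 and 3224 on NC and 571 and 776 on HFD (-1.68). Serpina3n, an acute-phase protease inhibitor, had 10099 and 14873 on NC and 5571 and 3013 on HFD (-1.58). The death receptor Fas had 777 and 1194 on NC and 483 and 432 on HFD (-1.07).

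Ghr, Tshr, Acvr1c, Serpina3n and Fas had a called interaction with the genotype and Hsd11b1 and Fkbp5 had not, and none of the 7 passed with the WT HFD libraries as 1 sample. Among the rises chosen in the same way, Ucp2, an uncoupling protein homologue of the inner mitochondrial membrane, had 2277 and 1627 on NC and 3688 and 3736 on HFD (0.95), and Abcg1, a cholesterol exporter, had 1104 and 825 on NC and 2315 and 1820 on HFD (1.10). The antigen presentation chaperone Cd74 had 2715 and 1795 on NC and 4383 and 4342 on HFD (0.98), and the cell surface receptor Cd44 had 5956 and 4025 on NC and 9286 and 8569 on HFD (0.87). These 4 rises did not pass once the WT HFD pair was averaged either. The RNA of the nuclear ribonuclease P, Rpph1, varied between libraries of 1 group, with 42838 and 17143 on NC and 4498 and 10765 on HFD.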
